A study of Homo sapiens with 22 samples.

Results

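A set of 9 interferon-stimulated genes was followed across every condition of an RNA-seq study of lysine deacetylases (KDACs) in HT1080 cells, an established human fibrosarcoma line. The genes were taken by name from the deposited table, which lists 60675 genes, and all 9 were found and tested in every comparison. They are the antiviral effectors IFIT1, IFIT2, IFIT3, ISG15, MX1 and OAS1 and the interferon regulatory factors IRF1, IRF7 and IRF9. The 22 libraries fall into 6 groups, and none of the groups received interferon or was infected as far as the labels and methods state. Wild-type cells (WT) gave 4 libraries. The lines KDAC6H216A, KDAC6H611A and KDAC8H143A gave 4 libraries each, and in each of them CRISPR editing had replaced a catalytic histidine of KDAC6 or KDAC8 with alanine. WT cells treated for 2 days with 1 µM Tubastatin A, a KDAC6 inhibitor, or with 5 µM PCI-34051, a KDAC8 inhibitor, gave 3 libraries each. KDAC6H216A was a pool of independent clonal lines and the other edited lines each grew from a single colony, so that a difference between such a line and WT cannot be told apart from a difference between clones. KDAC8H143A also carries an unintended insertion of a base in an intron near the edited site. Counts per gene cannot show these edits.

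Interferons are secreted proteins that cells release on sensing viral nucleic acid. Type I interferon binds the IFNAR1 and IFNAR2 receptor chains, the kinases JAK1 and TYK2 pass the signal on, and a complex that holds STAT2 and IRF9 binds the interferon-stimulated response element (ISRE) in front of antiviral genes. Genes that respond to type II interferon often hold the gamma-activated sequence (GAS). Uninfected fibroblast-like cells keep many of these genes at a low basal level.

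The promoters of 3 of the 9 genes hold the ISRE letters, which are GAAA, any 2 bases and GAAA again, or TTTC, any 2 bases and TTTC again when read on the other strand, and are shown because this element is bound by the complex that type I interferon activates. The sequences are RefSeq's, on GRCh38.p14, read 5′ to 3′ along the gene's strand, which is the plus strand for all 3. Capitals mark the ISRE letters, with 15 bases on each side.
IFIT1, chr10:89392492-89392544: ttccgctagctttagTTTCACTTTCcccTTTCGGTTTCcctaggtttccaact
IFIT3, chr10:89327826-89327899: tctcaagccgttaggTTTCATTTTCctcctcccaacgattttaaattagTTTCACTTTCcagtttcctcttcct
ISG15, chr1:1013369-1013414: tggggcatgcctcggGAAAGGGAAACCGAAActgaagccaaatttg
Each promoter held 2 matches. In IFIT1 they began 116 and 103 bases before the transcription start and did not overlap, whereas in ISG15 they began 113 and 107 bases before the start and shared 4 bases, GAAA. In IFIT3 they began 156 and 122 bases before the start. The IFIT3 and ISG15 stretches lie inside the gene spans given next, which also hold longer transcripts that start further upstream. A GAS match, TTCNNNGAA on either strand, was found in OAS1 (TTCAGAGAA, from 168 bases before the start), IRF1 (TTCCCCGAA, from 124 bases) and IRF9 (TTCTGGGAA, from 63 bases). The MX1 window held neither set of letters. IFIT2 and IRF7 had no entry in the promoter table. Among 27305 promoters searched over the same 250 bases, 3.07% held the ISRE letters and 6.78% the GAS letters. Among the 88 promoters found for a wider list of 113 interferon pathway genes these shares were 42% and 18.2%.

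The genes lie on 7 chromosomes, and positions are those of GENCODE 44 on GRCh38. IFIT2 (chromosome 10, 89283694 to 89309271), IFIT3 (chromosome 10, 89327307 to 89377473) and IFIT1 (chromosome 10, 89392546 to 89406487) lie in that order on the plus strand. The span of LIPA on the other strand, introns included, meets an exon of each. ISG15 lies on chromosome 1 (1001138 to 1014540, plus strand), MX1 on chromosome 21 (41420020 to 41470071, plus strand) and OAS1 on chromosome 12 (112905856 to 112933219, plus strand). IRF1 lies on chromosome 5 (132440440 to 132508719, minus strand), IRF7 on chromosome 11 (612553 to 615983, minus strand) and IRF9 on chromosome 14 (24161234 to 24168043, plus strand). The span of a gene on the other strand likewise meets an exon of MX1, OAS1, IRF1 and IRF9, and that of another protein-coding gene model on the same strand meets an exon of IRF9. Whether counting used strand is not given in the sources used here, and the exons of the partners were not examined. Whether the counts of these 7 genes hold reads of their partners is therefore not known. IRF7 is free of such overlaps. Its canonical transcript is 66.6% G and C, above 98.3% of annotated genes, and ISG15 follows at 64.2%, while IFIT1 and IFIT2 are near 42% (41.8% and 41.7%).

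Depth and library make-up differed between groups. Libraries held 5249001 to 29862708 counts, with WT at 5249001 to 8998524 and the inhibitor groups at 24315817 to 29862708. Mitochondrial rRNA took 20.8% to 23.9% of WT counts, 0.195% to 15.1% in KDAC6H216A (0.195% in replicate 1), 0.173% to 38.0% in KDAC6H611A (0.173% in replicate 4 and 38.0% in replicate 2) and under 0.03% in the other 3 groups. KDAC8H143A and both inhibitor groups overlapped WT in neither depth nor mitochondrial rRNA, and KDAC6H216A overlapped WT in depth but not in mitochondrial rRNA. A difference from WT in any of these groups therefore cannot be told apart from one of library make-up. The 1822 most GC-rich genes (61.65% GC or more) stood above the all-library mean in KDAC8H143A, by a median of 0.43 to 1.13 on the log2 scale in its 4 libraries, against -0.35 to 0.09 in the other 18. The tenth of genes with the lowest GC content had medians of 0.30 to 0.41 in the inhibitor libraries. Those medians were 0.08 to 0.15 in WT and -0.98 to -0.40 in KDAC8H143A. Between 7 and 8 of 10 mesenchymal markers reached 1 CPM in every group (VIM 2867 to 3797 CPM of all counts, on the same scale as the immune markers that follow). Of 10 immune markers 3 reached 1 CPM in every group, namely CD68 (24.7 to 109 CPM over the group means), CSF1R (1.35 to 4.24 CPM) and LYZ (1.00 to 3.72 CPM), and the 10 summed to 24.4 to 124 CPM in a library. The T-cell marker CD3E was at 0 in all groups but PCI-34051, where it averaged 0.0233 CPM, and PTPRC, which marks leukocytes, was at most 0.0809 CPM in any group mean. The part of these markers in the values of the 9 genes was not tested.

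**Figure D1:**
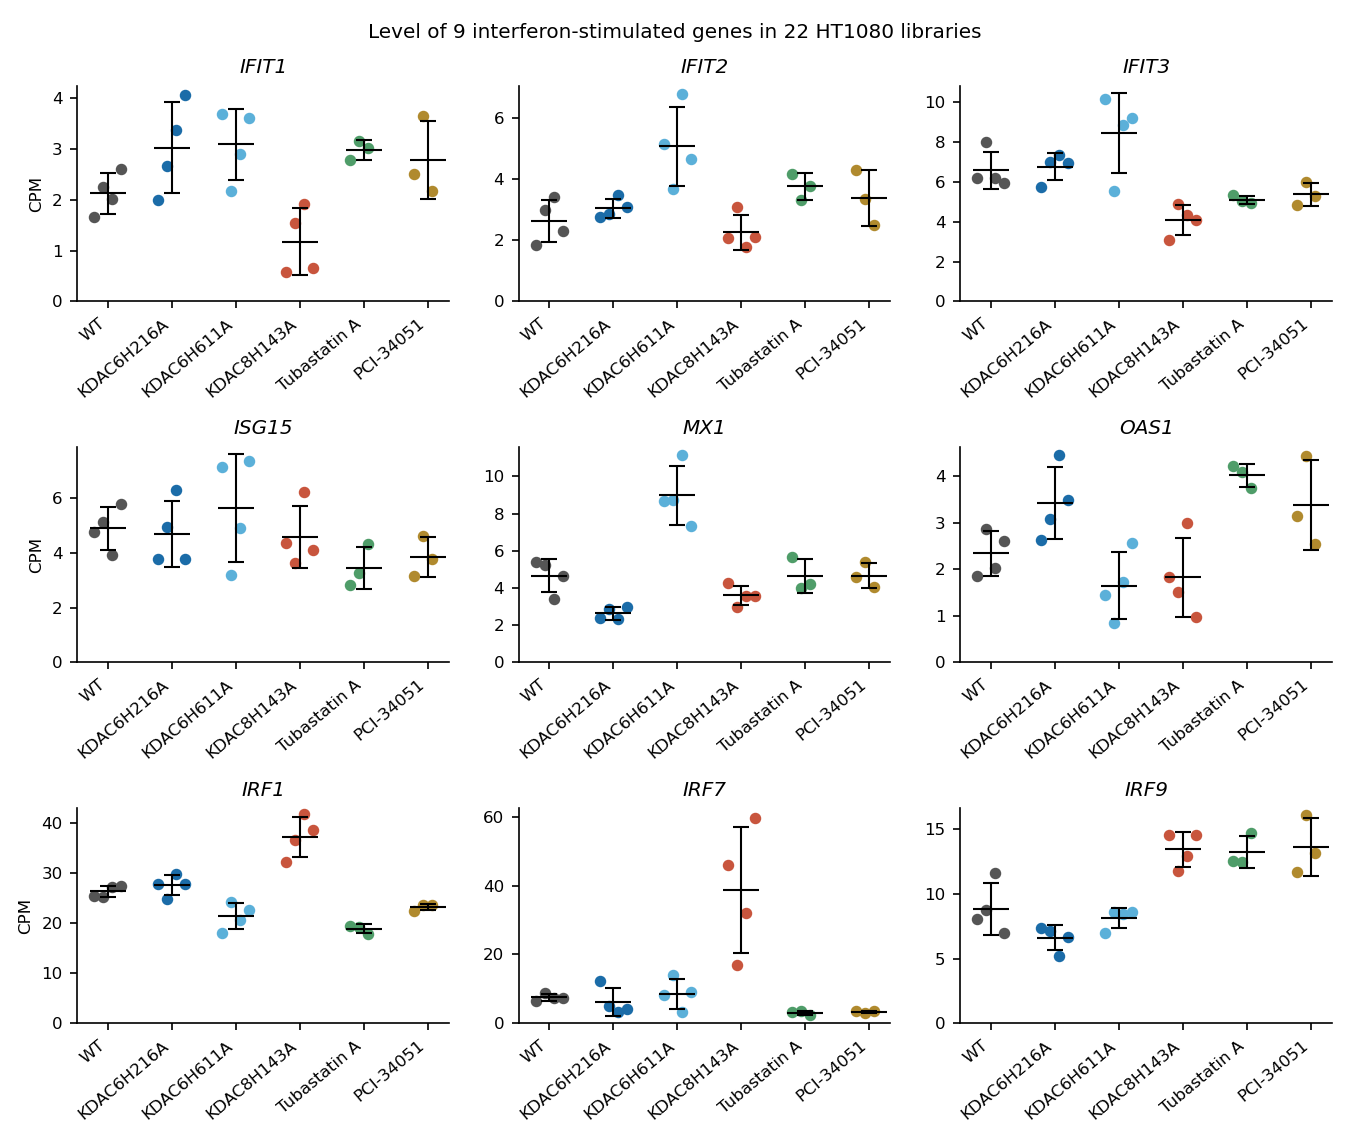
CPM (counts scaled to library size by TMM over the 22 libraries, linear axes from 0) of each of the 9 genes by group, with points for libraries, wide bars for group means and error bars of 1 SD. IRF7 spans 2.43 to 59.6 CPM with the 4 KDAC8H143A libraries on top, and MX1 is highest in the 4 KDAC6H611A libraries, at 7.34 to 11.1 CPM.

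All 9 genes were read in every library, at WT means of at most 26.3 CPM (IRF1), and no group showed a rise of the whole set. In WT cells, per kilobase of transcript, ISG15 (7.68 CPM per kb) and IRF1 (7.41 CPM per kb) stood highest, followed by IRF9 at 5.44, IRF7 at 3.96, IFIT3 at 2.75, MX1 at 1.68, OAS1 at 1.43, IFIT2 at 0.780 and IFIT1 at 0.496 CPM per kb. The regulators moved most often. IRF7 was 5.20-fold higher in KDAC8H143A than in WT and 2.71-fold lower after Tubastatin A and 2.37-fold lower after PCI-34051. Correction for GC content and gene length took the KDAC8H143A rise of IRF7 from 2.38 to 0.75 on the log2 scale. IRF1 rose in KDAC8H143A and fell with both inhibitors, and IRF9 rose in all 3 of these groups. Under the same correction IRF1 and IRF9 were no longer past the threshold in KDAC8H143A, at 0.11 (adjusted p = 0.33) and 0.11 (adjusted p = 0.57), and with scaling by total count alone IRF1 with PCI-34051 turned to 0.10 (adjusted p = 0.21). DESeq2 called 1 of the 9 genes with PCI-34051, where edgeR called 3. Of 11 alternatives other than leaving out a library, the PCI-34051 call was kept in 4 for IRF1 and in 8 for IRF9. Of the effectors, MX1 rose in KDAC6H611A and IFIT3 fell with Tubastatin A, and the others did not pass the test against WT in any group.

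Genes were tested with edgeR's quasi-likelihood test, with p-values adjusted over all genes tested by the method of Benjamini and Hochberg, and a gene was called changed when that adjusted p was below 0.01. The 5 comparisons with WT share the same 4 WT libraries. Fold changes come from fits of 2 groups scaled on their own, so that a ratio of the CPM means printed here can differ from the fitted fold, and each log2 fold change is given with its standard error (SE). With scaling by total count alone, the median gene moved on the log2 scale to 0.17 in KDAC6H216A, 0.35 with Tubastatin A, 0.38 with PCI-34051 and 0.36 in KDAC8H143A, and to -0.12 in KDAC6H611A against KDAC6H216A. Changes are therefore relative to the bulk of genes. In bulk RNA, fewer cells expressing a gene and less RNA per cell cannot be told apart.

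Against WT, the number of the 9 genes that changed was 0 in KDAC6H216A, where 0.834% of all genes tested changed. In KDAC6H611A 1 gene rose and 0 fell, against 12.3% of all genes changed, 6.08% higher and 6.24% lower. KDAC8H143A had 3 that rose and 0 that fell, with 58.5% of all genes changed, 31.6% higher and 26.9% lower. Tubastatin A had 1 that rose and 3 that fell, and of all genes tested 57.9% changed, 29.3% higher and 28.6% lower. PCI-34051 had 1 that rose and 2 that fell, and of all genes tested 51.1% changed, 25.5% higher and 25.6% lower. In KDAC8H143A and both inhibitor groups the share of the 9 genes that changed, 33.3%, 44.4% and 33.3%, was below the share of all genes, so that change as such does not set these genes apart there. The 9 genes had a median log2 fold change of -0.05 in KDAC6H216A and 0.24 in KDAC6H611A. The median was -0.18 for KDAC8H143A, -0.10 for Tubastatin A and -0.08 for PCI-34051. Over all genes tested it was 0.00, 0.03, 0.08, -0.00 and -0.01 in the same order. With scaling by total count alone the split became 4 higher and 2 lower with Tubastatin A and 2 higher and 1 lower with PCI-34051, and with correction for GC content and gene length it became 1 higher (IRF7) and 1 lower (ISG15) in KDAC8H143A, where 21.3% of all genes tested were higher and 27.3% lower.

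**Figure D2:**
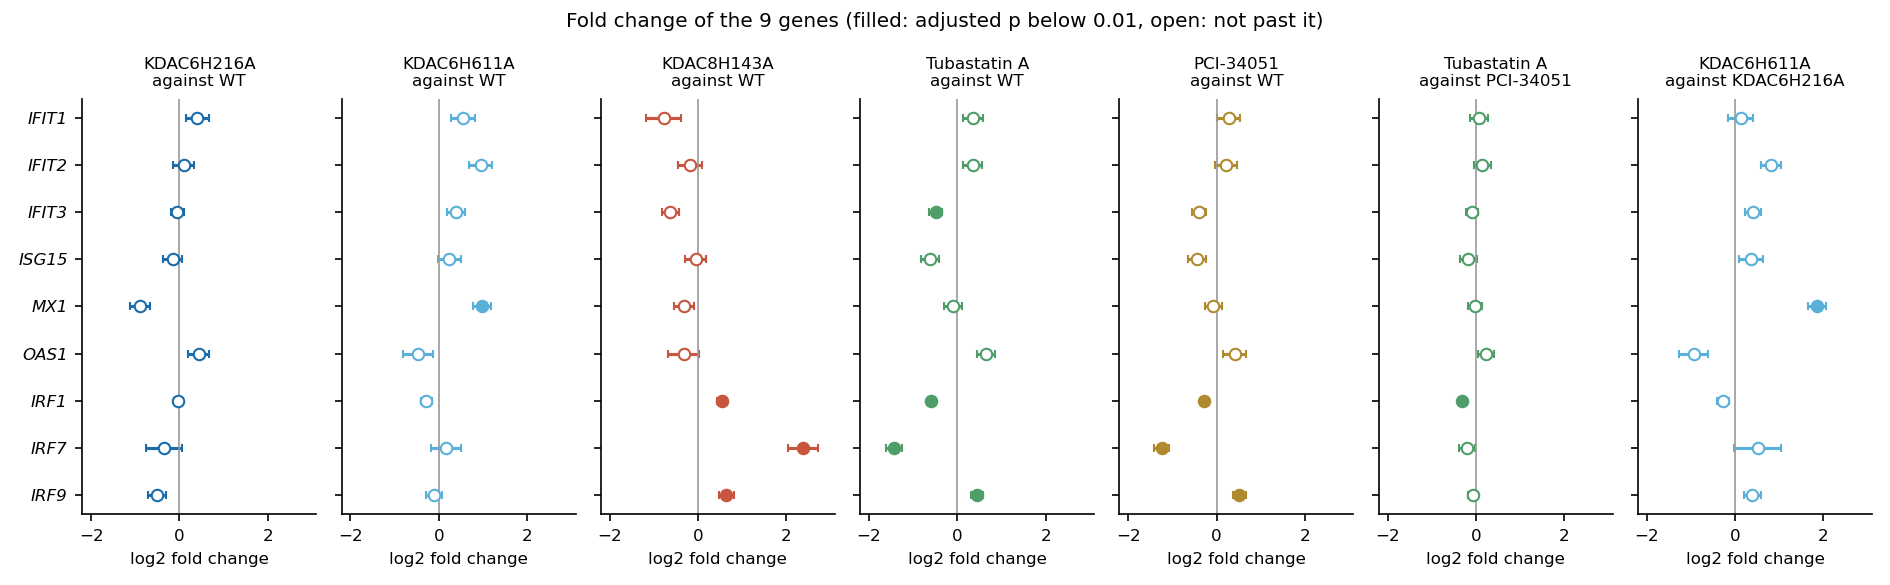
Log2 fold change of each of the 9 genes in 7 comparisons, with bars of 1 SE and filled points for an adjusted p below 0.01. IRF7 lies at 2.38 in KDAC8H143A and at -1.44 and -1.24 with the inhibitors, and MX1 lies at 1.85 in KDAC6H611A against KDAC6H216A.

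IFIT1, IFIT2 and IFIT3 encode proteins with tetratricopeptide repeats that bind foreign RNA and block its translation. IFIT1 was the lowest of the set in WT, and its WT libraries held 8, 18, 16 and 18 counts, or 1.66, 2.25, 2.02 and 2.61 CPM. It read 0.584, 1.55, 1.92 and 0.653 CPM in KDAC8H143A and 2.78, 3.16 and 3.02 CPM with Tubastatin A. KDAC8H143A overlapped WT and every Tubastatin A library lay above every WT library, yet neither difference passed the test, the log2 differences being -0.78 (SE 0.39, adjusted p = 0.093) and 0.35 (SE 0.23, adjusted p = 0.17). The group means of IFIT1 ran from 3.1 ± 0.705 CPM (SD, n = 4) in KDAC6H611A down to 1.18 ± 0.663 CPM (n = 4) in KDAC8H143A, and every pair of neighbours in that order overlapped.

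IFIT2 was highest in KDAC6H611A, at 5.14, 3.70, 6.80 and 4.66 CPM, against 1.86, 2.99, 3.41 and 2.32 CPM in WT. The groups did not overlap, and the log2 fold change was 0.95 (SE 0.26), with an adjusted p of 0.018 that missed the threshold. Without KDAC6H611A replicate 2, the library with the most mitochondrial rRNA, it was 1.03 (adjusted p = 0.0044). KDAC6H216A, at 2.75, 2.88, 3.48 and 3.1 CPM, also lay below all 4 KDAC6H611A libraries, the log2 difference between the lines being 0.82 (SE 0.23, adjusted p = 0.029). The other group means lay between 2.27 ± 0.573 CPM (n = 4) in KDAC8H143A and 3.76 ± 0.429 CPM (n = 3) with Tubastatin A, and all neighbours overlapped.

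IFIT3, the partner that stabilises IFIT1 binding to RNA, was the best covered of the 3. WT libraries read 6.21, 7.99, 6.19 and 5.94 CPM, and the Tubastatin A libraries read 5.34, 5.04 and 4.93 CPM, all below WT. IFIT3 fell with Tubastatin A by 0.49 on the log2 scale (SE 0.15, adjusted p = 0.0077). Without WT replicate 2, the high value, the difference was -0.37 (adjusted p = 0.067), and the call was kept in 1 of the 7 fits that left out a library, the one without WT replicate 4. With scaling by total count alone it was -0.14 (adjusted p = 0.42). In KDAC8H143A, at 3.09, 4.89, 4.34 and 4.08 CPM, IFIT3 also lay below all WT libraries, at a log2 difference of -0.63 (SE 0.20, adjusted p = 0.014). PCI-34051 gave -0.39 (SE 0.16, adjusted p = 0.041) at 4.83, 6.01 and 5.28 CPM, and its highest library overlapped WT. KDAC6H611A had the highest mean, 8.44 ± 2.01 CPM (n = 4), but its replicate 2 read 5.54 CPM and the adjusted p was 0.19.

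ISG15 is a ubiquitin-like protein that is joined to other proteins through UBA7, UBE2L6 and HERC5. It read 4.76, 5.12, 3.91 and 5.79 CPM in WT and 2.81, 3.26 and 4.3 CPM with Tubastatin A, where 1 library overlapped WT. The log2 fold change of -0.61 (SE 0.20, adjusted p = 0.012) missed the threshold. It passed without WT replicate 3 (-0.71, adjusted p = 0.0088) or without Tubastatin A replicate 3 (-0.79, adjusted p = 0.0031). In KDAC8H143A the level was 4.34, 3.63, 6.19 and 4.08 CPM and the difference was -0.05 (SE 0.23, adjusted p = 0.84). Once GC content and gene length were corrected for, that value became -1.25 (adjusted p = 2.8e-04). ISG15 is itself among the GC-rich genes, which stood higher in KDAC8H143A as a class. All neighbours in the order of group means, from 5.64 ± 1.97 CPM in KDAC6H611A (n = 4) to 3.46 ± 0.765 CPM with Tubastatin A (n = 3), overlapped.

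MX1, a dynamin-like GTPase that traps viral nucleocapsids, separated both KDAC6 lines. It read 8.70, 8.73, 11.1 and 7.34 CPM in KDAC6H611A, 5.38, 5.24, 3.41 and 4.63 CPM in WT, and 2.38, 2.88, 2.32 and 3.00 CPM in KDAC6H216A. The 3 groups did not overlap, with KDAC6H611A above WT and KDAC6H216A below it. MX1 rose in KDAC6H611A by 0.98 on the log2 scale (SE 0.21, adjusted p = 0.0048). The size hardly moved when libraries were left out (0.84 to 1.07), but only 3 of the 8 fits kept an adjusted p below 0.01, those without WT replicate 1, KDAC6H611A replicate 2 or KDAC6H611A replicate 4, and without WT replicate 3 it was 0.84 (adjusted p = 0.021). In KDAC6H216A the log2 fold change against WT was -0.90 (SE 0.23, adjusted p = 0.087). The direct comparison gave MX1 3.60-fold higher in KDAC6H611A than in KDAC6H216A, a log2 difference of 1.85 (SE 0.21, adjusted p = 2.4e-04), and this was past the threshold in all 8 fits that left out a library. Of the 9 genes MX1 was the 1 that changed between the KDAC6 lines, where 9.93% of all genes tested changed, 4.61% higher and 5.31% lower. Without KDAC6H216A replicate 1 and KDAC6H611A replicate 4, the libraries of these lines with little mitochondrial rRNA, it was 1.95 (adjusted p = 5.4e-04). MX1 was near its WT level elsewhere, at 4.65 ± 0.907 CPM with Tubastatin A (n = 3), 4.67 ± 0.668 CPM with PCI-34051 (n = 3) and 3.60 ± 0.513 CPM in KDAC8H143A (n = 4), and these 4 groups overlapped.

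OAS1 makes the oligoadenylates that switch on RNase L. It read 4.22, 4.08 and 3.74 CPM with Tubastatin A, above all WT libraries at 1.86, 2.87, 2.02 and 2.61 CPM. The log2 fold change of 0.64 (SE 0.21, adjusted p = 0.0102) stood at the threshold and did not pass it. With correction for GC content and length it was 0.77 (adjusted p = 0.0025), and with scaling by total count alone 0.99 (adjusted p = 1.8e-04). PCI-34051 gave 0.41 (SE 0.26, adjusted p = 0.17), at 3.15, 4.42 and 2.54 CPM. The KDAC6 lines differed in the opposite sense to MX1, with 1.45, 0.840, 1.72 and 2.56 CPM in KDAC6H611A below 2.63, 3.08, 4.44 and 3.49 CPM in KDAC6H216A. The lines did not overlap, and the log2 fold change of -0.94 (SE 0.32) had an adjusted p of 0.068.

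IRF1, a transcription factor induced by type II interferon and by inflammatory signals, was the best counted of the 9 genes in WT. Its WT libraries lay within 25.2 to 27.4 CPM (mean 26.3 ± 1.16, n = 4). KDAC8H143A libraries read 32.2, 36.5, 41.7 and 38.5 CPM, all above the other 18, and IRF1 rose by 0.55 on the log2 scale (SE 0.11, adjusted p = 6.9e-04) in every fit that left out a library. Once GC content and gene length were corrected for, the difference was 0.11 (adjusted p = 0.33). With Tubastatin A IRF1 read 19.5, 19.2 and 17.9 CPM and fell by 0.59 (SE 0.07, adjusted p = 7.2e-07), also in all 7 fits that left out a library. With PCI-34051 it read 22.4, 23.5 and 23.6 CPM, likewise below all WT libraries, and fell by 0.28 (SE 0.07, adjusted p = 0.0025), but with scaling by total count alone the sign turned, to 0.10 (adjusted p = 0.21). The PCI-34051 call was lost without WT replicate 3 (-0.27, adjusted p = 0.012), WT replicate 4 (-0.26, adjusted p = 0.011) or PCI-34051 replicate 1 (-0.26, adjusted p = 0.016). KDAC6H611A read 18.1, 24.2, 20.7 and 22.6 CPM, below all WT libraries, at -0.28 (SE 0.12, adjusted p = 0.12), and KDAC6H216A, at 27.6 ± 2.04 CPM (n = 4), overlapped WT.

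IRF1 was also the 1 of the 9 genes that differed between the inhibitors, where 5.65% of all genes tested changed, 3.45% higher and 2.19% lower. Its 3 Tubastatin A libraries lay below its 3 PCI-34051 libraries, at a log2 difference of -0.31 (SE 0.07, adjusted p = 0.0068) for Tubastatin A against PCI-34051. The agents were given at different doses, 1 µM and 5 µM, so that dose and compound cannot be told apart. With 1 library of the 6 left out the difference stayed between -0.34 and -0.27, and the adjusted p rose to between 0.014 and 0.053. For the other 8 genes the log2 difference between the inhibitors lay between -0.19 (IRF7, SE 0.18) and 0.23 (OAS1, SE 0.19), and none passed the test.

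IRF7, the factor that drives amplification of the type I interferon response, had the widest span. WT libraries read 6.62, 8.98, 7.32 and 7.53 CPM. KDAC8H143A libraries read 45.8, 17.1, 31.9 and 59.6 CPM, all above every other library of the study. IRF7 rose in KDAC8H143A by 2.38 on the log2 scale (SE 0.34, adjusted p = 7.0e-05), and leaving out 1 library gave 2.03 to 2.57. The 1822 most GC-rich genes stood above the all-library mean by 0.88, 0.43, 0.86 and 1.13 in these same 4 libraries, so that the library with the least IRF7 was also the one with the smallest shift of GC-rich genes and the library with the most IRF7 the one with the largest. Once GC content and gene length were corrected for, the rise of IRF7 was 0.75 and still past the threshold (adjusted p = 0.006). With that correction 48.6% of all genes tested changed in KDAC8H143A, 21.3% higher and 27.3% lower, and of the 9 genes IRF7 was higher and ISG15 lower.

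**Figure D3:**
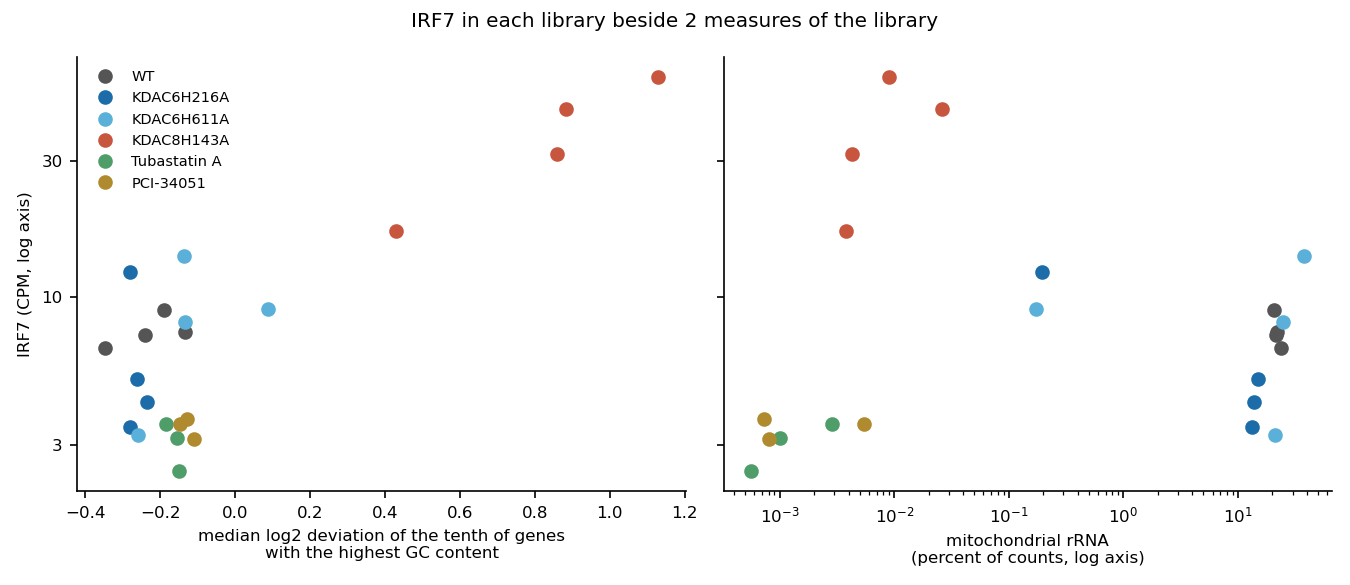
IRF7 in CPM (log axis) against the median log2 deviation of the 1822 most GC-rich genes (left) and the percent of counts from mitochondrial rRNA (right, log axis) in the same library, with 1 point for each of the 22 libraries coloured by group. The 4 KDAC8H143A libraries lie apart at deviations of 0.43 to 1.13 and at 17.1 to 59.6 CPM, and the inhibitor libraries lie at 2.43 to 3.70 CPM.

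With the inhibitors IRF7 went the other way. It read 3.19, 3.56 and 2.43 CPM with Tubastatin A and 3.56, 3.15 and 3.70 CPM with PCI-34051, and all 6 libraries lay below the WT range. IRF7 fell by 1.44 with Tubastatin A (SE 0.18, adjusted p = 8.0e-07) and by 1.24 with PCI-34051 (SE 0.17, adjusted p = 4.8e-06) on the log2 scale, and every fit that left out a library kept both calls. GC correction left these at -1.54 and -1.40. The KDAC6 lines were spread widely, with 12.3, 5.14, 3.48 and 4.26 CPM in KDAC6H216A and 8.18, 13.9, 3.26 and 9.08 CPM in KDAC6H611A. Replicate 1 was the high library of KDAC6H216A and held the least mitochondrial rRNA of that line (0.195%). Replicate 2, the high library of KDAC6H611A, held the most of its line (38.0%). KDAC6H611A replicate 4, with the least (0.173%), read 9.08 CPM, and a link of IRF7 with mitochondrial rRNA was not tested. Against WT IRF7 differed by -0.35 (SE 0.40, adjusted p = 0.73) in KDAC6H216A and by 0.17 (SE 0.34, adjusted p = 0.78) in KDAC6H611A, and without KDAC6H611A replicate 2 the sign of the latter turned, to -0.21 (adjusted p = 0.61).

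IRF9, the DNA-binding subunit of the complex on the ISRE, rose in 3 groups. It read 8.07, 8.73, 11.6 and 6.95 CPM in WT. It read 12.5, 12.5 and 14.7 CPM with Tubastatin A, 11.7, 16.1 and 13.1 CPM with PCI-34051, and 14.5, 11.8, 12.9 and 14.5 CPM in KDAC8H143A, and no library of these groups fell below the highest WT library. The log2 fold changes were 0.45 with Tubastatin A (SE 0.13, adjusted p = 0.0049), 0.51 with PCI-34051 (SE 0.15, adjusted p = 0.0067) and 0.64 in KDAC8H143A (SE 0.17, adjusted p = 0.0053). WT replicate 3 was the high WT library, and without it the values were 0.63 (adjusted p = 5.1e-04), 0.68 (adjusted p = 0.0014) and 0.79 (adjusted p = 0.0024). The Tubastatin A call was lost without WT replicate 2 (0.44, adjusted p = 0.016), WT replicate 4 (0.35, adjusted p = 0.028) or Tubastatin A replicate 3 (0.38, adjusted p = 0.021). With PCI-34051 it was kept only without WT replicate 3 or PCI-34051 replicate 1, and leaving out any of the other 5 libraries gave an adjusted p of up to 0.035, at 0.39 to 0.54. In KDAC8H143A it was kept only without WT replicate 3 or KDAC8H143A replicate 2, and leaving out any of the other 6 libraries gave an adjusted p of up to 0.025, at 0.52 to 0.62. Once GC content and gene length were corrected for, IRF9 stood at 0.60 (adjusted p = 5.0e-04), 0.62 (adjusted p = 0.0019) and, in KDAC8H143A, 0.11 (adjusted p = 0.57). It read 6.59 ± 0.966 CPM in KDAC6H216A and 8.15 ± 0.778 CPM in KDAC6H611A (n = 4 each), both overlapping WT.

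In KDAC6H216A 0 of the 9 genes passed edgeR's test against WT, with 2 at an unadjusted p below 0.05 and 0 called by DESeq2. Replicate 1 of this line decided that count. Without it MX1 (-0.89, adjusted p = 0.0057), IRF7 (-0.98, adjusted p = 3.9e-04) and IRF9 (-0.63, adjusted p = 0.0084) fell in KDAC6H216A, while the share of all genes tested that changed went from 0.834% (0.214% higher and 0.621% lower) to 26.1% (12.2% higher and 13.9% lower). The part of the low mitochondrial rRNA of this library in its values was not tested.

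The 9 genes did not move as 1 unit across the 22 libraries. On log2 CPM, IFIT3 went with IFIT1 (r = 0.70) and IFIT2 (r = 0.61), and IRF1 with IRF7 (r = 0.75), while IFIT1 and IRF7 ran in opposite directions (r = -0.80). These values describe libraries that share groups, depth and GC make-up, and the KDAC8H143A libraries lie at an end of each range of IRF1 and IRF7. Outside the wider interferon list described next, the genes whose log2 CPM followed the mean of the 9 most closely over the 22 libraries, of 18471 compared, were FIS1 (r = 0.81), TST (r = 0.80), RANGRF (r = 0.79), TRIP6 (r = 0.79) and TWF2 (r = 0.78).

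The wider list of 113 pathway genes placed the 9 genes in context, and its members are counted by role. The shares that changed lay near those of all genes, at 60% against 57.9% with Tubastatin A, 53.8% against 51.1% with PCI-34051, 12.5% against 12.3% in KDAC6H611A and 53.9% against 58.5% in KDAC8H143A. In KDAC6H216A 0 of 87 tested pathway genes passed edgeR's test, with 15 at an unadjusted p below 0.05 and 2 called by DESeq2. Without KDAC6H216A replicate 1 the count was 19, with 11 higher and 8 lower. In KDAC6H611A 8 rose and 3 fell of 88 tested, and 10 were higher and 2 lower with upper-quartile scaling. The ISG15 conjugation genes gave 2 of 4 higher, namely UBA7, the activating enzyme for ISG15, from 17 ± 1.51 to 31.3 ± 1.49 CPM (log2 fold change 0.91), and HERC5, its ligase, from 1.38 ± 0.287 to 3.55 ± 0.737 CPM (1.37). Of the 37 tested antiviral effectors 5 rose, among them IFI27 (1.44), IFITM1 (1.18) and LGALS3BP (0.84), and 3 fell, ISG20 (-1.36), PLSCR1 (-0.57) and SP100 (-0.39). Of the 8 fits that left out a library, the IFITM1 call was kept in 1, that of SP100 in 2, HERC5 in 3 and PLSCR1 in 6. The calls of UBA7, IFI27, LGALS3BP and ISG20 were kept in all 8. IFNAR1, IFNAR2, JAK1, TYK2 and STAT2 did not pass the test in this line, with log2 fold changes from -0.37 (JAK1) to 0.20 (IFNAR2). The pathway count moved with single libraries, at 4 without WT replicate 2 or WT replicate 3, 5 without WT replicate 1 or KDAC6H611A replicate 1, 6 without WT replicate 4 or KDAC6H611A replicate 4, and 23 without KDAC6H611A replicate 2, against 11 with all libraries.

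Between the KDAC6 lines 7 pathway genes were higher in KDAC6H611A and 2 lower, of 90 tested. That is 10% of those tested, beside 9.93% of all genes (4.61% higher and 5.31% lower), so that the count does not set the list apart. It was 8 and 1 with upper-quartile scaling, and 2 and 0 with scaling by total count alone, where 2.5% of all genes were higher and 2.71% lower. HERC5 (log2 fold change 3.18, from 1 to 7 counts in the KDAC6H216A libraries against 15 to 39) and IFITM1 (2.95), a membrane protein that blocks viral entry, were furthest apart. SAMD9L (1.03), PARP10 (0.93), the DNA-sensing adaptor STING1 (0.83), UBA7 (0.77) and the negative regulator SOCS3 (0.53) were also higher, and ISG20 (-0.73) and SP100 (-0.49) lower. UBA7 and SOCS3 were named after their values were seen, to complete the 9. Without KDAC6H216A replicate 1 the count was 14. Without KDAC6H216A replicate 2 it was 4, and it was 5 without KDAC6H216A replicate 3, KDAC6H216A replicate 4, KDAC6H611A replicate 1 or KDAC6H611A replicate 4.

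In KDAC8H143A 17 pathway genes rose and 31 fell of 89 tested, or 19.1% and 34.8%, beside 31.6% of all genes higher and 26.9% lower. The median was -0.17 against 0.08 for all genes. With scaling by total count alone the split was 23 higher and 16 lower, with 40.2% of all genes higher and 15.5% lower, and with correction for GC content and gene length it was 9 higher and 35 lower, with 21.3% and 27.3% of all genes. Of the 6 receptor genes 5 fell, including IFNAR1 from 32.8 ± 2.00 to 13 ± 4.13 CPM (log2 fold change -1.27), IFNGR1 (-2.74) and IFNLR1 (-1.88), while IFNAR2 stood at -0.04 (adjusted p = 0.87). All 5 kept the call with the correction, and 3 kept it with scaling by total count alone. Of 5 tested transcription factors 4 rose, among them NLRC5 (1.46), which drives MHC class I genes, and BATF2 (1.22). With the correction NLRC5 stayed past the threshold, at 0.59 (adjusted p = 5.4e-04), and the other 3 did not, BATF2 at 0.45 (adjusted p = 0.11), IRF5 at 0.28 (adjusted p = 0.34) and IRF3 at -0.05 (adjusted p = 0.65). JAK1 (-0.50) fell, and TYK2 (1.05) and STAT2 (0.39) rose. JAK1 was at -0.21 (adjusted p = 0.16) with scaling by total count alone, and with the correction TYK2 was at 0.05 (adjusted p = 0.70) and STAT2 at 0.12 (adjusted p = 0.26). The STAT2 call was kept in 1 of the 8 fits that left out a library, and that of IRF5 in 2. The sensors CGAS (-3.48, listed under its older symbol MB21D1) and TLR3 (-1.95) fell, as did the effector SAMD9 (-2.35), and SOCS1, which inhibits the kinases, rose (3.27). These 4 kept their calls under both alternatives, at 1.83 for SOCS1 with the correction. PARP10 and HELZ2, at 1.38 and 1.25, turned to -0.28 and -0.46 with it. SOCS1 held 2 to 4 counts in WT libraries, against 48 to 65 in KDAC8H143A. CGAS held 0 to 8 in KDAC8H143A, against 21 to 44 in WT. The sizes of both fold changes therefore rest on few counts in the lower group.

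**Figure D4:**
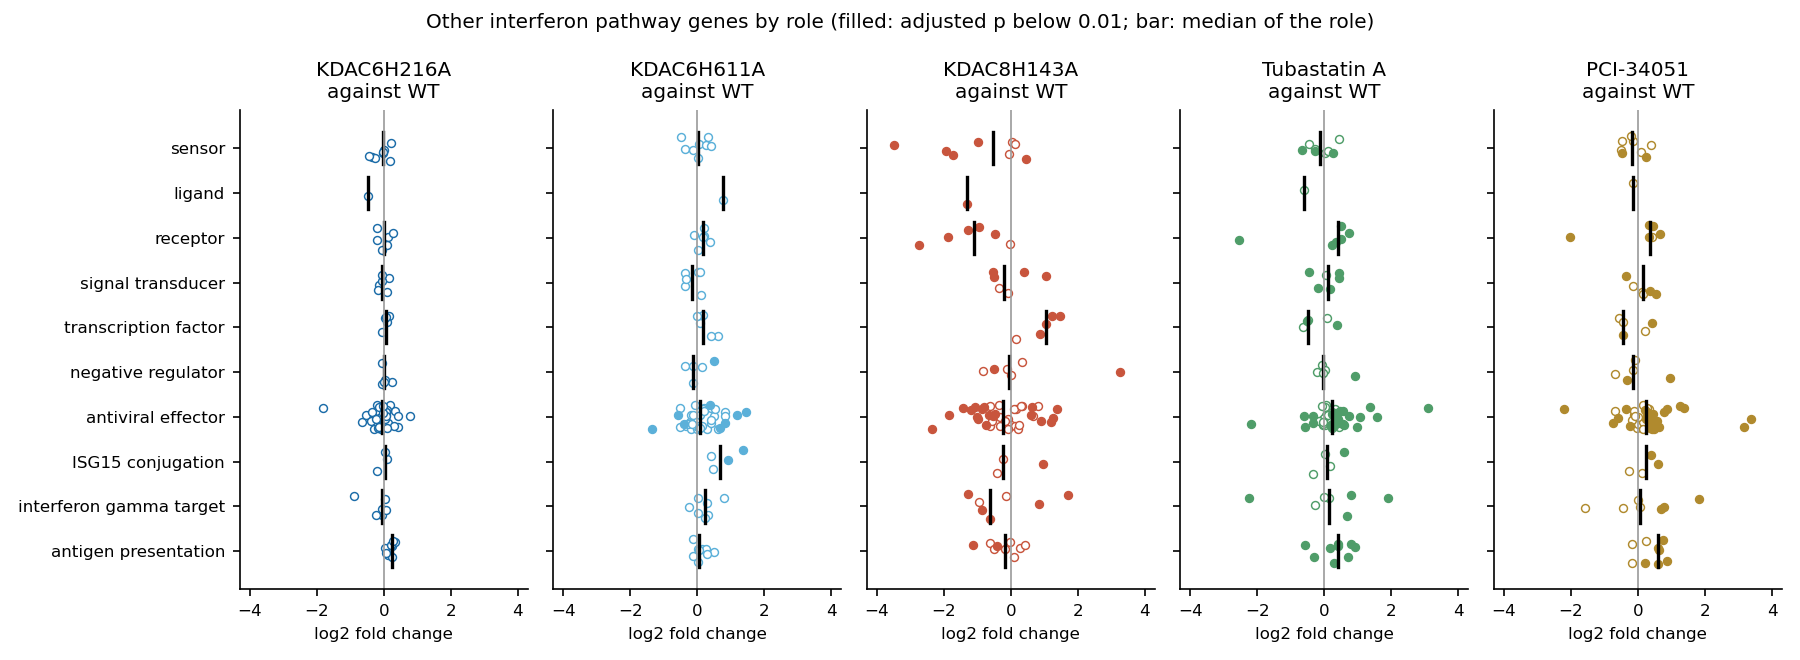
Log2 fold change against WT of each tested gene of the interferon pathway list, by role, in 5 comparisons, with filled points for an adjusted p below 0.01, open points for the others and black bars for the median of the role. Filled receptors number 0 above and 5 below 0 in KDAC8H143A and 5 above and 1 below with Tubastatin A, and filled antigen presentation genes number 7 above and 2 below with Tubastatin A.

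With the inhibitors the receptors and the genes of antigen presentation were mostly higher. Of the 6 receptors 5 were higher and 1 lower with Tubastatin A, and 4 were higher and 1 lower with PCI-34051. The lower gene in both was IFNLR1 (-2.55 and -2.03), the chain specific to type III interferon. Over all genes tested 29.3% were higher and 28.6% lower with Tubastatin A, and 25.5% and 25.6% with PCI-34051. IFNAR1 (0.51 and 0.46) and JAK1 (0.42 and 0.38) rose with Tubastatin A and PCI-34051, and TYK2 fell (-0.47 and -0.36). IFNAR2 (0.48) rose and STAT2 (-0.18) fell with Tubastatin A, and their values with PCI-34051, 0.41 (adjusted p = 0.019) and -0.13 (adjusted p = 0.041), did not pass. With scaling by total count alone the sign turned for TYK2 with PCI-34051 (0.03) and for STAT2 with Tubastatin A (0.17). Of the 9 antigen presentation genes 7 rose and 2 fell with Tubastatin A, and 6 rose and 0 fell with PCI-34051. With correction for GC content and gene length the Tubastatin A split was 6 and 0, and with scaling by total count alone 7 and 0.

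Antiviral effectors other than the 6 of the set gave 18 higher and 5 lower of 39 tested with Tubastatin A and 19 higher and 5 lower of 40 with PCI-34051. Over all genes tested 29.3% were higher and 28.6% lower with Tubastatin A, and 25.5% and 25.6% with PCI-34051. With correction for GC content and gene length the effector splits were 15 and 6, and 15 and 7. Genes of other roles are named with the effectors below. GBP2, an interferon-induced GTPase listed as an interferon gamma target, went from 3.71 ± 0.509 CPM in WT to 15 ± 1.87 with Tubastatin A (log2 fold change 1.90) and 14.1 ± 1.16 with PCI-34051 (1.82). IFITM1 (1.56 and 1.26) and SAMD9L (1.06 and 1.37) rose with each, as did IFI6 (1.37 and 0.87), whose PCI-34051 call was kept in 2 of the 7 fits that left out a library. MX2, the close relative of MX1, was at 1 to 2 counts in WT libraries, and its summed CPM was 9.53 times the WT value with Tubastatin A (95% interval 4.55 to 24.0) and 9.96 times with PCI-34051 (4.75 to 25.1). BST2, which tethers budding virus, stood at 11.8 times WT with PCI-34051 (4.5 to 43.7), from 4 counts in all 4 WT libraries, and these intervals cover counting error only. ISG20, an exonuclease, fell with Tubastatin A from 29.96 ± 4.99 to 7.24 ± 0.196 CPM (-2.18) and with PCI-34051 to 7.03 ± 0.855 CPM (-2.21). The RNA sensor RIGI (listed as DDX58, -0.66 and -0.47) and PNPT1 (-0.60 and -0.60) fell with each, as did OAS3, a relative of OAS1 (-0.33 and -0.74). OAS3 with Tubastatin A was 0.02 (adjusted p = 0.83) when scaled by total count alone. PARP10 fell with Tubastatin A (-0.58).

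Over the list 40 rose and 14 fell of 90 tested with Tubastatin A and 39 rose and 10 fell of 91 with PCI-34051, or 44.4% and 15.6%, and 42.9% and 11%. The shares over all genes were 29.3% higher and 28.6% lower, and 25.5% and 25.6%. Medians were 0.16 and 0.21 against -0.00 and -0.01 for all genes. With correction for GC content and gene length the lean of the antiviral effectors, the largest role, was smaller. They gave 15 higher and 6 lower with Tubastatin A, and 15 and 7 with PCI-34051, while the receptors kept their splits. With scaling by total count alone the splits of the list were 62 higher and 5 lower, beside 51.9% and 12.1% of all genes, and 60 higher and 4 lower, beside 51.4% and 9.62%. Between the inhibitors 3 were higher with Tubastatin A, IFITM2 (0.64), SAMHD1 (0.43) and STING1 (0.34, listed as TMEM173), and 6 lower, including PARP10 (-0.45), UBA7 (-0.36), PARP14 (-0.25), TAPBP (-0.24) and TRIM22 (-0.23), of 97 tested. That is 3.09% higher and 6.19% lower, beside 3.45% and 2.19% of all genes tested. The pathway count was 3 without Tubastatin A replicate 1, and 2 without Tubastatin A replicate 2 or 3, with 0 lower in each.

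Of the interferons the list held 7 genes, and no IFNA gene or IFNW1 was examined. Apart from IFNE and IFNK, these genes had at most 3 counts in a group. IFNE, an epithelial type I interferon, had counts in all 22 libraries, at 4.60 ± 0.940 CPM in WT (n = 4) and 1.77 ± 0.936 CPM in KDAC8H143A (n = 4), where it fell by 1.29 on the log2 scale (adjusted p = 0.0088). That call was kept in 2 of the 8 fits that left out a library, those without KDAC8H143A replicate 2 or KDAC8H143A replicate 4, with an adjusted p of up to 0.031 in the others, and with correction for GC content and gene length the difference was -0.36 (adjusted p = 0.32). IFNE did not pass in the other groups. It read 3.50 ± 3.18 CPM in KDAC6H216A and 7.70 ± 3.49 CPM in KDAC6H611A (n = 4 each), and 3.24 ± 0.478 and 4.39 ± 0.134 CPM with Tubastatin A and PCI-34051 (n = 3 each). IFNB1 summed to 0 counts in WT and KDAC6H216A and to between 1 and 3 in the other groups, IFNK to between 3 and 22 counts in a group, and IFNL3 to 1 count in KDAC8H143A. IFNL1, IFNL2 and IFNG had 0 counts in every library, which at the depth of a library allows up to 0.1 to 0.572 CPM.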

How the data were processed

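Expression was measured by RNA-seq of rRNA-depleted RNA from 22 libraries. The authors deposited RSEM expected counts per gene, not normalized. The submitters' processing notes name Trimmomatic 0.39, Bowtie2 2.4.5, RSEM 1.3.3 and DESeq2 1.38.2 and build GRCh38, and the annotation release is not given in the sources used here. Between 10.6% and 13.5% of all values of a library, zeros included, were not whole, and expected counts were rounded before testing. No value column was left out (0 not used). RSEM shares reads between similar genes by its model, so that counts of overlapping genes and close relatives are estimates.

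Groups came from the sample labels. Whether replicates came from separate cultures is given only as biological replicates, so that p-values measure the spread between these libraries. For each of 7 comparisons the 2 groups were fitted alone with edgeR 4.0.16 (R 4.3.3), with TMM scaling, the filterByExpr filter, the quasi-likelihood test and Benjamini-Hochberg adjustment over all genes, called below 0.01. The SE is the log2 fold change divided by the square root of F. CPM used TMM over the 22 libraries. All 9 genes were named. From the pathway list, IFNAR1, IFNAR2, JAK1, TYK2 and STAT2, ligands above 0, up to 5 rises and 5 falls per comparison (at least 1 CPM in the higher group, no overlap of libraries) and the 5 genes most like the mean of the 9 were named, with 4 pathway genes under an older symbol. 1 further gene of this rule is not reported here. The genes and lists were chosen with earlier results of these data known. GENCODE 44 gave positions, length and GC content (56558 of 60675 genes matched). Promoters are RefSeq's. The fits were tested on simulated data.

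Alternatives were DESeq2 1.42.0, upper-quartile and total-count scaling, an unfiltered table, a minimum of 10 counts per library, 1 fit of all 6 groups, removal of mitochondrial rRNA and small RNA, thinning to the smallest total, a replicate block, correction for GC content and length (mgcv 1.9.3), both together, an adjusted p of 0.05, and each library left out. Summaries used scipy 1.17.1, pandas 2.3.3 and numpy 2.4.6 and figures matplotlib 3.10.9, under Python 3.11.15.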

Additional observations from a re-analysis of the deposited data

Results flagged for a closer look

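IFIT3 in WT replicate 2 stood at 7.99 CPM, far above the other WT libraries at 5.94 to 6.21 CPM, its gap being 0.869 of the range of the group. IRF9 in KDAC6H611A replicate 1 stood at 6.99 CPM, below the others at 8.43 to 8.62 CPM, with a gap of 0.883 of the range. Both gaps exceed Dixon's 95% critical value for 4 libraries. Chance flags about 1 in 20 groups, and 36 groups of 4 were examined. The IFIT3 fall with Tubastatin A lost its call without that WT library, and the IRF9 value touches no called result.

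MX1 differed between the KDAC6 lines by a log2 fold change of 1.85 (edgeR, adjusted p = 2.4e-04), so that its effects against WT in the 2 lines differed by a test of the difference itself. It was higher in all 4 KDAC6H611A libraries than in any KDAC6H216A library. IRF1 differed between Tubastatin A and PCI-34051 by -0.31 (edgeR, adjusted p = 0.0068), lower in all 3 Tubastatin A libraries, at doses that were not matched. This call was kept in 0 of the 6 fits that left out a library, with an adjusted p of up to 0.053. It was kept in 6 of 11 other alternatives.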

How the results depend on the processing

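Of 748 log2 fold changes of the 9 genes under alternatives other than leaving out a library, 662 kept their direction and their side of the threshold, 32 lost the call, 22 gained it and 32 changed sign, 1 of the last, IRF1 with PCI-34051, being a called result. With 1 library left out the numbers were 413, 34, 7 and 14 of 468, with no called result among the 14. Unless a construction is named, the cause was not tested. WT libraries were among the shallowest, at 5249001 to 8998524 counts. IFIT1 had 8 to 18 and OAS1 9 to 23 counts in each, so that a missed threshold for these genes shows little.

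Total-count scaling changed sign for KDAC6H216A in IFIT3 (0.11), ISG15 (0.011) and IRF1 (0.15), for KDAC8H143A in IFIT2 (0.12) and ISG15 (0.24), for MX1 with Tubastatin A (0.25) and PCI-34051 (0.31) and for IRF1 with PCI-34051 (0.10). It gave 3 pathway genes in KDAC6H216A, 4 in KDAC6H611A and 2 between the KDAC6 lines. One fit of all 6 groups, which shares the spread, gave 2 of the 9 genes with Tubastatin A, 1 with PCI-34051, 0 between the inhibitors and 2 between the KDAC6 lines, and 1, 27, 27, 0 and 14 pathway genes in KDAC6H216A, Tubastatin A, PCI-34051, between inhibitors and between KDAC6 lines. It turned IFIT3 (0.038) and IRF1 (0.065) in KDAC6H216A, and MX1 with Tubastatin A (0.0059) and PCI-34051 (0.012).

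DESeq2 gave 2 pathway genes in KDAC6H216A and 1 of the 9 genes with PCI-34051, and IRF1 in KDAC6H216A became 0.0027. Thinning to the smallest total, which lowers every count, gave 1 of the 9 genes with PCI-34051 and 0 between the inhibitors, 5 pathway genes between the inhibitors and 5 between the KDAC6 lines, and turned IFIT2 in KDAC8H143A (0.060) and IFIT3 between the inhibitors (0.22). Without a filter IRF1 in KDAC6H216A became 0.0098 and MX1 with PCI-34051 0.0089, and with at least 10 counts per library ISG15 in KDAC8H143A became 0.0089. An adjusted p of 0.05 gave 2 of the 9 genes in KDAC6H611A and 2 between the KDAC6 lines, and 2, 20, 19 and 17 pathway genes in KDAC6H216A, KDAC6H611A, between the inhibitors and between the KDAC6 lines. GC and length correction gave 0 of the 9 genes between the inhibitors and turned IFIT3 (0.026), ISG15 (0.073) and IRF1 (0.043) in KDAC6H216A, IRF7 (-0.057) in KDAC6H611A, IFIT2 (0.30) in KDAC8H143A and MX1 (0.0038) between the inhibitors.

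Same-numbered libraries did not deviate together throughout (r from -0.351 to 0.552). Some did, as replicate 3 of KDAC6H216A with WT (r = 0.262), of KDAC6H611A with WT (0.232) and between the KDAC6 lines (0.552), and replicate 1 of KDAC6H216A with WT (0.333). No comparison had every pair above 0.1, so the numbers are not taken to pair libraries. The replicate block gave 0 of the 9 genes in KDAC6H611A, 2 with Tubastatin A, 1 with PCI-34051 and 0 between the inhibitors, and 7 pathway genes in KDAC6H611A and 5 between the KDAC6 lines. The block with GC and length correction gave 0 of the 9 in KDAC6H611A and 0 between the inhibitors, 3 pathway genes in KDAC6H611A, 5 between the inhibitors and 4 between the KDAC6 lines, and turned IFIT3 (0.036), ISG15 (0.060) and IRF1 (0.039) in KDAC6H216A, IRF7 (-0.12) in KDAC6H611A, IFIT2 (0.31) in KDAC8H143A, ISG15 with PCI-34051 (0.0055) and ISG15 between the KDAC6 lines (-0.0051). Without KDAC6H216A replicate 1 and KDAC6H611A replicate 4, an alternative chosen after seeing the data, IFIT1 between the KDAC6 lines became -0.055.

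Leaving out 1 library gave 0 to 3 of the 9 genes in KDAC6H216A, 0 to 2 in KDAC6H611A, 2 to 4 in KDAC8H143A, 2 to 4 with Tubastatin A, 1 to 2 with PCI-34051, 0 to 0 between the inhibitors and 1 to 1 between the KDAC6 lines. For pathway genes the ranges were 0 to 19, 4 to 23, 39 to 54, 48 to 53, 40 to 49, 2 to 8 and 4 to 14 in the same order. Signs turned for results that were not called. In KDAC6H216A these were IFIT2 (-0.0015 to 0.24), IFIT3 (-0.099 to 0.052) and IRF1 (-0.074 to 0.033), in KDAC6H611A IRF7 (-0.21 to 0.47) and IRF9 (-0.19 to 0.053), and in KDAC8H143A ISG15 (-0.28 to 0.022). MX1 ran from -0.27 to 0.0047 with Tubastatin A and from -0.22 to 0.011 with PCI-34051. Between the inhibitors IFIT1 (-0.059 to 0.33), IFIT2 (-0.022 to 0.35), MX1 (-0.19 to 0.091) and IRF9 (-0.16 to 0.068) turned, and IFIT1 between the KDAC6 lines ran up to 0.28.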
